A study of Drosophila melanogaster with 6 samples.

Results

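The peritrophic matrix is the sheet of chitin and glycoproteins that lines the insect midgut and keeps food, microbes and abrasive particles away from the epithelium. Its chitin fibres are made by chitin synthases, cross-linked by peritrophins, which carry chitin-binding domains, coated by heavily glycosylated mucins, and remodelled by chitin deacetylases and chitinases. Imaginal disc growth factors (Idgf) are secreted relatives of chitinases without the catalytic activity. Members were chosen by gene name (peritrophins, obstructors, Muc and Mur genes, chitinases, Idgf genes, chitin deacetylases and chitin synthases), which gave 53 of the 14026 genes in the deposited table. Of these, 28 had an overall mean of at least 20 normalised reads and are described one by one: 3 peritrophins or obstructors, 9 mucins, 6 chitinases, 5 deacetylases and 5 Idgf genes.

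RNA came from adult midguts of Oregon-R wild-type Drosophila melanogaster, with 2 libraries in each of 3 groups. Pe day 3 flies had received a treatment that the labels write only as Pe and were 7 to 8 days old. Pe day 0 flies had received Pe and were 4 to 5 days old, and Mock flies had received sucrose and were also 4 to 5 days old. No sucrose group of 7 to 8 days is among the samples, so Pe day 3 and Mock differ in treatment, day and age, which cannot be told apart. The series was designed to follow the start and the end of midgut regeneration.

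The deposited table holds an overall mean and 2 comparisons with Mock for each gene, not values per library. Group levels below were derived from these and are normalised reads ± model SE (n = 2 libraries), where the SE rests on a spread that all 3 groups share. Which comparison is which day was read from the order of groups in the table's title, so every direction rests on that order. The labels do not say that the libraries of a group came from separate dissections, so p-values measure the spread between these libraries only. Estimated depth was 17592677 to 20117275 reads per library. The scale matters: summed over all genes, normalised reads differed by -0.67 (log2) between Pe day 0 and Mock, so taking library totals as the scale adds 0.67 to each fold change there, 0.029 to those of Pe day 3 against Mock and -0.64 to those of Pe day 3 against Pe day 0. Markers of the midgut were present: all 10 enterocyte and all 9 enteroendocrine markers were tested, and their summed levels were 232244 and 14487 normalised reads at Pe day 3, 109108 and 5351 at Pe day 0, and 184007 and 12859 in Mock. At Pe day 0, 4 enterocyte markers were higher and 6 lower, and 0 enteroendocrine markers were higher and 7 lower, by the authors' deposited table. Of all tested genes 23.0% were higher and 23.6% lower in that comparison. With library totals, 4 enterocyte markers were higher and 5 lower, and 2 enteroendocrine markers were higher and 2 lower. The enteroendocrine median went from -0.78 to -0.11. In bulk tissue, fewer cells of a type and less RNA per cell cannot be told apart.

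At Pe day 0 against Mock, 21 of 43 tested members were called at an adjusted p under 0.05 by the authors' deposited table, 10 higher and 11 lower, against a background of 46.6% of all 10393 tested genes called (23.0% higher and 23.6% lower). On the scale of library totals the members' split was 13 higher and 5 lower, beside 5545 higher and 932 lower of all 10393 genes. By the authors' deposited table the members' median log2 fold change was -0.29, beside 0.028 over all tested genes. At Pe day 3 against Mock, 6 of 27 tested members passed by the authors' deposited table, 4 higher and 2 lower, against 17.7% of 8316 genes (8.75% higher and 8.92% lower). Between the Pe groups, Pe day 3 was higher than Pe day 0 for 9 and lower for 7 of 27 tested members by the Wald test, against 52.7% of genes called (27.4% higher and 25.3% lower). Library totals turned the members' split to 5 higher and 8 lower, beside 778 higher and 5250 lower of all 8316 genes. The members' shares called, 48.8%, 22.2% and 59.3% in that order, lay near the background. Both comparisons with Mock use the same Mock libraries. A minimum on the mean also favours genes that are high in a single group, as Cht8, Cht12, Muc18B and ChLD3 were at Pe day 0.

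**Figure D1:**
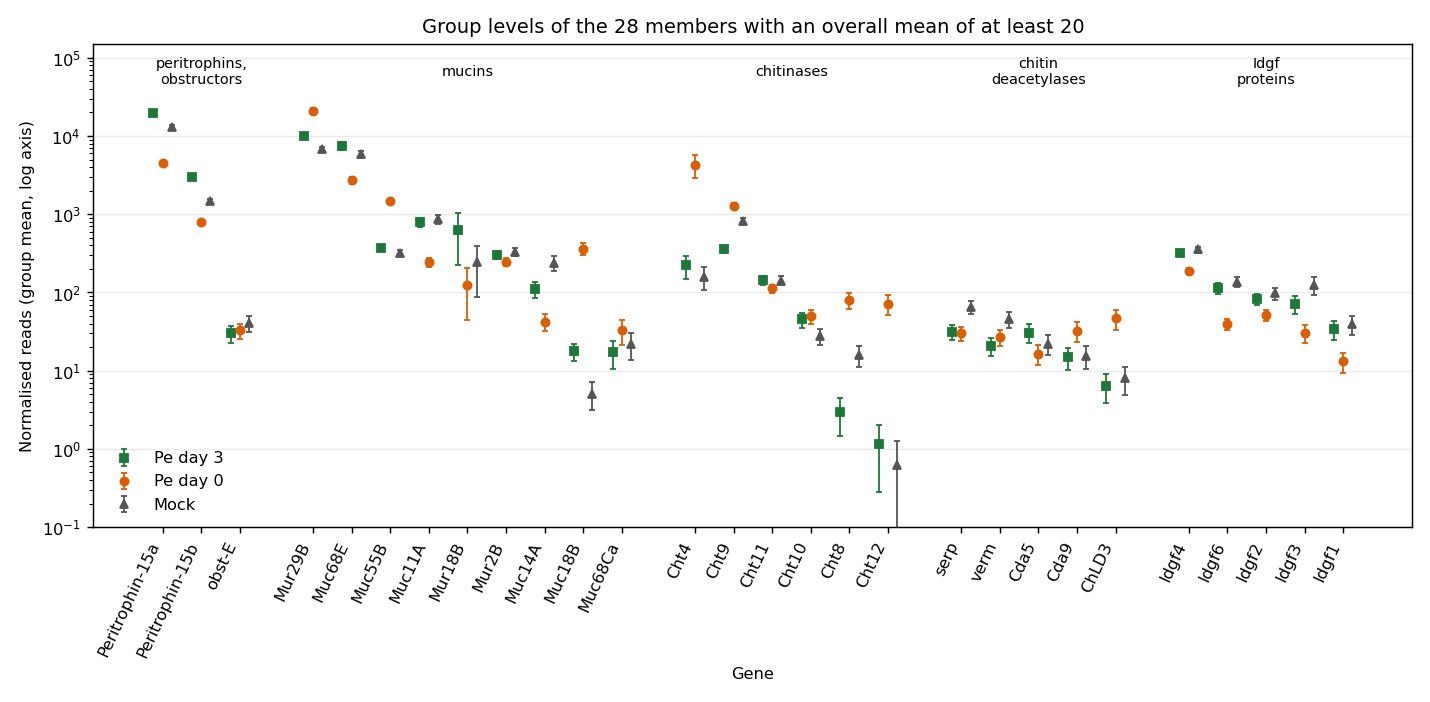
Group means of the 28 members (normalised reads, log axis) at Pe day 3 (squares), Pe day 0 (circles) and in Mock (triangles), by role. Bars are 1 model SE to each side (the lower bar of Cht12 in Mock runs off the axis); Peritrophin-15a, Muc68E and the Idgf genes dip at Pe day 0, whereas Mur29B, Muc55B, Muc18B, Cht4, Cht8 and Cht12 peak there.

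Chitin in the fly gut is laid down by its own synthase gene, Chs2, while kkv serves the epidermis and trachea. The table lists Chs2 as CS-2, a synonym, so the name rule missed it and it is not counted among the 53. CS-2 averaged 6860 normalised reads at Pe day 3, 1680 at Pe day 0 and 5332 in Mock. Its fall at Pe day 0 against Mock was 3.17-fold by the authors' deposited table (log2 fold change -1.67, SE 0.15, adjusted p = 1.79e-27). At Pe day 3 CS-2 did not pass against Mock by the authors' deposited table (0.36, SE 0.15, adjusted p = 0.0744), and it was 4.08-fold higher than at Pe day 0 (2.03, SE 0.15, adjusted p = 1.99e-40). Library totals put that log2 difference between the Pe groups at 1.39. The member synthase gene kkv was barely detected, with a mean of 3.47 normalised reads over all libraries.

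The hexosamine pathway turns fructose 6-phosphate into UDP-N-acetylglucosamine, the substrate of chitin synthesis. Of 10 tested genes in the chitin synthesis list other than kkv, 2 were higher and 3 lower at Pe day 0 by the authors' deposited table (median 0.066). CS-2 is among those lower. The shares over all tested genes were 23.0% higher and 23.6% lower (median 0.028). With library totals 5 were higher and 1 lower (median 0.73). Over all 10393 tested genes, that scale gave 5545 higher and 932 lower (median 0.69). At Pe day 0 nst, the phosphoacetylglucosamine mutase gene, was at 0.55 (SE 0.15, adjusted p = 0.000708) and Gfat2, for a first-step amidotransferase, at -0.48 (SE 0.13, adjusted p = 0.000638) by the authors' deposited table. With library totals Gfat2 changed sign and was not called (0.19, adjusted p = 0.188). Its paralog Gfat1 was higher at Pe day 3 than Mock by the authors' deposited table (0.76, SE 0.23, adjusted p = 0.00673), where 2 of 7 tested genes of the list were higher and 1 lower. The shares over all tested genes were 8.75% higher and 8.92% lower there. The gene mmy, for the last enzyme before the synthase, averaged 1998 normalised reads at Pe day 3, 1924 at Pe day 0 and 2081 in Mock, and its change at Pe day 0 did not pass by the authors' deposited table (-0.11, SE 0.13, adjusted p = 0.494), though with library totals it was called higher (0.55, adjusted p = 4.52e-05).

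The small peritrophin genes fell at Pe day 0 and stood above Mock at Pe day 3. Among the members they were the only peritrophin or obstructor genes called at Pe day 0 by the authors' deposited table. There 2 were lower and 0 higher of 8 tested (0 higher at an unadjusted p under 0.05). They were also the only such members called at Pe day 3, 2 higher of 3 tested. Of all tested genes 23.6% were lower at Pe day 0, near the share in this list, and 8.75% higher at Pe day 3. Peritrophin-15a and Peritrophin-15b encode short chitin-binding proteins and lie 724 bases apart on the minus strand of chromosome arm 2L (8394446 to 8396096, BDGP6.54 annotation). Peritrophin-15a averaged 19692 ± 921 normalised reads at Pe day 3, 4494 ± 213 at Pe day 0 and 13127 ± 617 in Mock. Per kilobase of exon this was the highest level of any member in each group, at 54548, 12450 and 36364 normalised reads per kilobase at Pe day 3, Pe day 0 and in Mock. In the authors' deposited table it was 2.92-fold lower at Pe day 0 than Mock (-1.55, SE 0.096, adjusted p = 2.09e-56) and 1.5-fold higher at Pe day 3 than Mock (0.59, SE 0.096, adjusted p = 5.32e-08). Pe day 3 exceeded Pe day 0 4.38-fold (2.13, SE 0.096, adjusted p = 5.85e-107, Wald test).

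Peritrophin-15b, at a lower level, followed the same course. It averaged 3034 ± 209 normalised reads at Pe day 3, 798 ± 56 at Pe day 0 and 1467 ± 103 in Mock. Against Mock, the authors' deposited table gave -0.88 (SE 0.14, adjusted p = 6.71e-09) at Pe day 0 and 1.05 (SE 0.14, adjusted p = 1.72e-11) at Pe day 3. On the scale of library totals the fall at Pe day 0 no longer passed (-0.21, adjusted p = 0.194), whereas that of Peritrophin-15a did (-0.88). The gene lies wholly within an annotated antisense RNA, and since the use of strand is not given in the sources used here, reads of the pair cannot be told apart. Together the pair held 22726 normalised reads at Pe day 3, 5292 at Pe day 0 and 14595 in Mock.

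Obstructors are chitin-binding proteins of cuticle and trachea, and those that matched the name rule were scarce here. obst-E averaged 29.9 ± 7.15 normalised reads at Pe day 3, 32.7 ± 7.19 at Pe day 0 and 40.1 ± 9.21 in Mock, and it passed in no comparison. Its 95% interval at Pe day 0 against Mock was -1.19 to 0.61 on the log2 scale. Peritrophin-A and obst-A, which neighbour each other on the X chromosome, had overall means of 5.09 and 5.07, and obst-B, obst-F, obst-G, obst-H, obst-I and obst-J lay below 3 normalised reads. Gasp, an obstructor-family gene outside the name rule, was lower at Pe day 0 than Mock by the authors' deposited table (-1.04, SE 0.22, adjusted p = 8.09e-06), a call lost with library totals (-0.37, adjusted p = 0.126), and fell short of the threshold at Pe day 3 (-0.31, SE 0.22, adjusted p = 0.400).

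At Pe day 0, 4 of 13 tested mucin genes were higher than Mock and 3 lower by the authors' deposited table, with a median of 0.58, beside 23.0% of all tested genes higher and 23.6% lower. Among the 9 with a mean of at least 20, 3 were higher and 3 lower, with a median of -0.43, so the sign of the median rests on scarce genes. At Pe day 3, 2 of 9 tested mucin genes were higher than Mock and 0 lower by the authors' deposited table (1 lower at an unadjusted p under 0.05). Of all tested genes 8.75% were higher there and 8.92% lower. Of the same 9 mucin genes, 3 were higher and 3 lower at Pe day 3 than at Pe day 0 by the Wald test, beside 27.4% and 25.3% of all tested genes.

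Mur29B, the most abundant mucin gene, rose. It averaged 9963 ± 806 normalised reads at Pe day 3, 21077 ± 1699 at Pe day 0 and 6748 ± 547 in Mock. It was 3.12-fold higher than Mock at Pe day 0 (1.64, SE 0.16, adjusted p = 3.75e-22) and 1.48-fold higher at Pe day 3 (0.56, SE 0.17, adjusted p = 0.00640) by the authors' deposited table. Its level at Pe day 3 was 2.12-fold lower than at Pe day 0 (-1.08, SE 0.16, adjusted p = 3.93e-10, Wald test). At Pe day 0 this gene alone supplied 55.3% of all members' normalised reads, against 21.5% in Mock, while the share of Peritrophin-15a was 11.8% at Pe day 0 against 41.8% in Mock.

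Muc55B had 371 ± 27 normalised reads at Pe day 3, 1490 ± 93 at Pe day 0 and 323 ± 24 in Mock. Its rise at Pe day 0 was 4.61-fold by the authors' deposited table (2.20, SE 0.14, adjusted p = 1.02e-53), and at Pe day 3 it did not pass against Mock (0.20, SE 0.15, adjusted p = 0.449). Pe day 3 was 4.02-fold below Pe day 0 for this gene (-2.01, SE 0.14, adjusted p = 4.11e-46, Wald test). Muc55B was thus high in a single group.

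Muc18B was nearly absent from Mock. It averaged 17.8 ± 4.4 normalised reads at Pe day 3, 364 ± 63 at Pe day 0 and 5.10 ± 1.97 in Mock, where about 8 reads over both libraries underlie the value. In the authors' deposited table it was 71.3-fold higher at Pe day 0 than Mock (6.16, SE 0.61, adjusted p = 1.16e-22) and 3.49-fold higher at Pe day 3 (1.8, SE 0.66, adjusted p = 0.0394), a call lost with no filter on the mean (adjusted p = 0.0566). Counting error alone gives an exact 95% interval of 37.6-fold to 173-fold for the day 0 ratio. Its neighbour Mur18B, 576 bases upstream on the same strand of the X chromosome (19213254 to 19214938), did not pass in any comparison and is taken up with the spread between libraries. Muc96D, at 7.83 normalised reads over all libraries, was also higher at Pe day 0 by the authors' deposited table (3.38, SE 1.21, adjusted p = 0.0135).

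Mucin genes that fell at Pe day 0 were higher at Pe day 3 than at Pe day 0. Muc68E averaged 7534 ± 825 normalised reads at Pe day 3, 2723 ± 299 at Pe day 0 and 5858 ± 642 in Mock. It was 2.15-fold lower at Pe day 0 than Mock by the authors' deposited table (-1.11, SE 0.22, adjusted p = 3.74e-06), a call lost with library totals (-0.44, adjusted p = 0.0768), and 2.77-fold higher at Pe day 3 than at Pe day 0 (1.47, SE 0.22, adjusted p = 3.88e-10, Wald test). Muc11A had 793 ± 106 normalised reads at Pe day 3, 245 ± 33 at Pe day 0 and 864 ± 115 in Mock. Its fall at Pe day 0 was 3.53-fold by the authors' deposited table (-1.82, SE 0.27, adjusted p = 2.41e-10), and its level at Pe day 3 exceeded that at Pe day 0 3.24-fold (1.70, SE 0.27, adjusted p = 4.08e-09). Muc14A, a long and repetitive gene, had 110 ± 26 normalised reads at Pe day 3, 42.4 ± 10.2 at Pe day 0 and 241 ± 55 in Mock. It was lower at Pe day 0 by the authors' deposited table (-2.51, SE 0.48, adjusted p = 9.74e-07) and did not pass at Pe day 3 (-1.13, SE 0.47, adjusted p = 0.0858). Its difference of 1.38 between Pe day 3 and Pe day 0 (SE 0.49, adjusted p = 0.0106) was lost with library totals (0.74, adjusted p = 0.160).

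Mur2B and Muc68Ca passed in no comparison. Mur2B averaged 301 ± 35 normalised reads at Pe day 3, 244 ± 28 at Pe day 0 and 329 ± 38 in Mock, and its 95% interval for Pe day 3 against Mock was -0.59 to 0.33 on the log2 scale. Its span, introns included, overlaps those of dor and CG3740, with overall means of 422 and 608. Muc68Ca stayed between 17.3 and 32.9 normalised reads in the 3 groups.

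**Figure D2:**
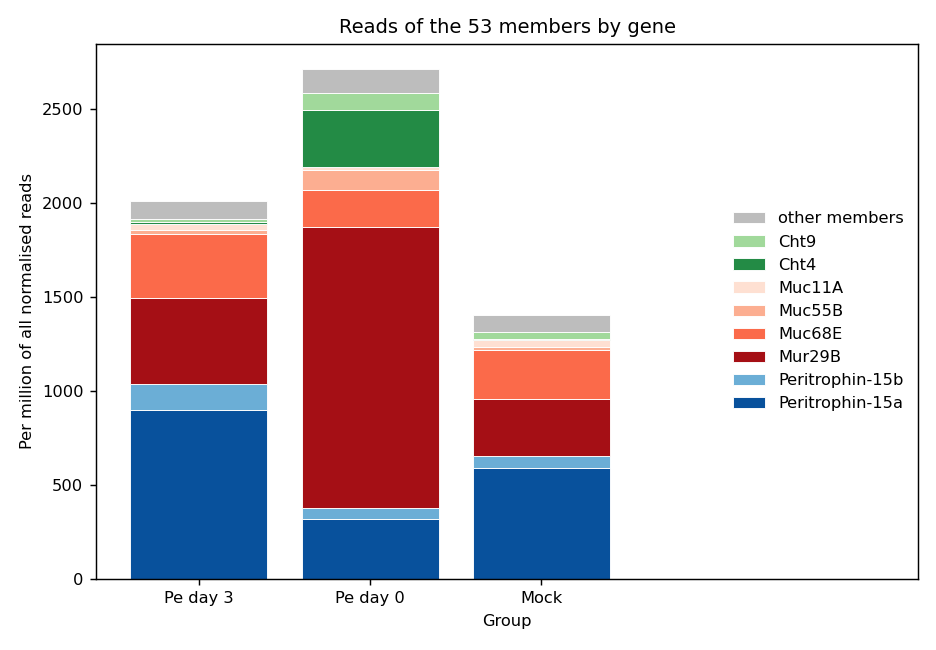
Stacked bars give the members' reads as parts per 1000000 of all normalised reads at Pe day 3, at Pe day 0 and in Mock, divided by gene. The full bars reach 2012, 2713 and 1407, and at Pe day 0 the Mur29B and Cht4 blocks are larger and the Peritrophin-15a block smaller than in Mock.

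Chitinases cut chitin chains, and 5 of 10 tested chitinase genes were higher at Pe day 0 than Mock and 0 lower by the authors' deposited table, with a median of 1.63, beside 23.0% of all tested genes higher. Cht8, Cht12, Cht4 and Cht9 lie side by side within 7.64 kilobases of chromosome arm 2R, with no other protein-coding gene in that stretch of the BDGP6.54 annotation, and all 4 were among those called. Summed over the 4 genes, the level was 581 normalised reads at Pe day 3, 5702 at Pe day 0 and 1006 in Mock. The fifth was Cht2 on 3L, with 5.29 normalised reads at Pe day 3, 36.4 at Pe day 0 and 8.09 in Mock (2.17, SE 0.72, adjusted p = 0.00715 at Pe day 0 by the authors' deposited table).

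Cht4 carried most of the rise. It averaged 222 ± 73 normalised reads at Pe day 3, 4268 ± 1390 at Pe day 0 and 159 ± 53 in Mock. The authors' deposited table placed it 26.8-fold higher at Pe day 0 (4.75, SE 0.67, adjusted p = 1.26e-11), with a 95% interval of 10.8-fold to 66.7-fold, and not past the threshold at Pe day 3 (0.48, SE 0.67, adjusted p = 0.747). Pe day 3 was 19.3-fold below Pe day 0 (-4.27, SE 0.67, adjusted p = 1.22e-09, Wald test). At Pe day 0 Cht4 made up 72.2% of all chitinase reads, against 13.4% in Mock.

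Cht9 was the main chitinase gene in Mock, with 69.9% of chitinase reads there. It averaged 355 ± 32 normalised reads at Pe day 3, 1283 ± 106 at Pe day 0 and 830 ± 71 in Mock. In the authors' deposited table it was 1.55-fold higher at Pe day 0 than Mock (0.63, SE 0.17, adjusted p = 0.000771) and 2.34-fold lower at Pe day 3 than Mock (-1.23, SE 0.18, adjusted p = 6.48e-10). The order of the 3 levels was thus the reverse of that of Peritrophin-15b.

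Cht8 and Cht12 were scarce in Mock. Cht8 averaged 2.94 ± 1.47 normalised reads at Pe day 3, 79.3 ± 18.6 at Pe day 0 and 16.1 ± 4.8 in Mock. In the authors' deposited table it was 4.94-fold higher at Pe day 0 (2.30, SE 0.55, adjusted p = 9.70e-05) and 5.46-fold lower at Pe day 3 (-2.45, SE 0.84, adjusted p = 0.0243), where about 5 reads over both libraries underlie the level. Cht12 had about 2 reads over both Pe day 3 libraries, 204 over both Pe day 0 libraries and 1 over both Mock libraries. The ratio of Pe day 0 to Mock was 117 with an exact 95% interval of 20.8 to 4651 from counting error only, and the change was called by the authors' deposited table (6.86, SE 1.53, adjusted p = 3.13e-05), a fitted value that rests on 1 Mock read. The 3' ends of Cht8 and Cht12 overlap by 35 bases on opposite strands, and without strand, reads there cannot be told apart. An annotated antisense RNA also covers 1027 bases of Cht9.

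The other chitinase genes did not pass in any comparison. Cht10 averaged 45.5 ± 9.9 normalised reads at Pe day 3, 49.5 ± 10.1 at Pe day 0 and 27.6 ± 6.6 in Mock, and its 0.84 (SE 0.45, adjusted p = 0.118) at Pe day 0 by the authors' deposited table passed only with the scale by totals. Cht11 averaged 142 ± 18 normalised reads at Pe day 3, 113 ± 14 at Pe day 0 and 142 ± 18 in Mock. Hexosaminidases finish chitin breakdown, among other glycan work, and of 3 such genes 2 were lower at Pe day 0 by the authors' deposited table, Hexo1 at -1.30 (SE 0.095, adjusted p = 9.72e-41) and Hexo2 at -1.13 (SE 0.32, adjusted p = 0.00116). The share lower over all tested genes was 23.6% there. With library totals Hexo1 stayed lower (-0.63, adjusted p = 1.52e-10) and Hexo2 was not called (-0.46, adjusted p = 0.200).

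**Figure D3:**
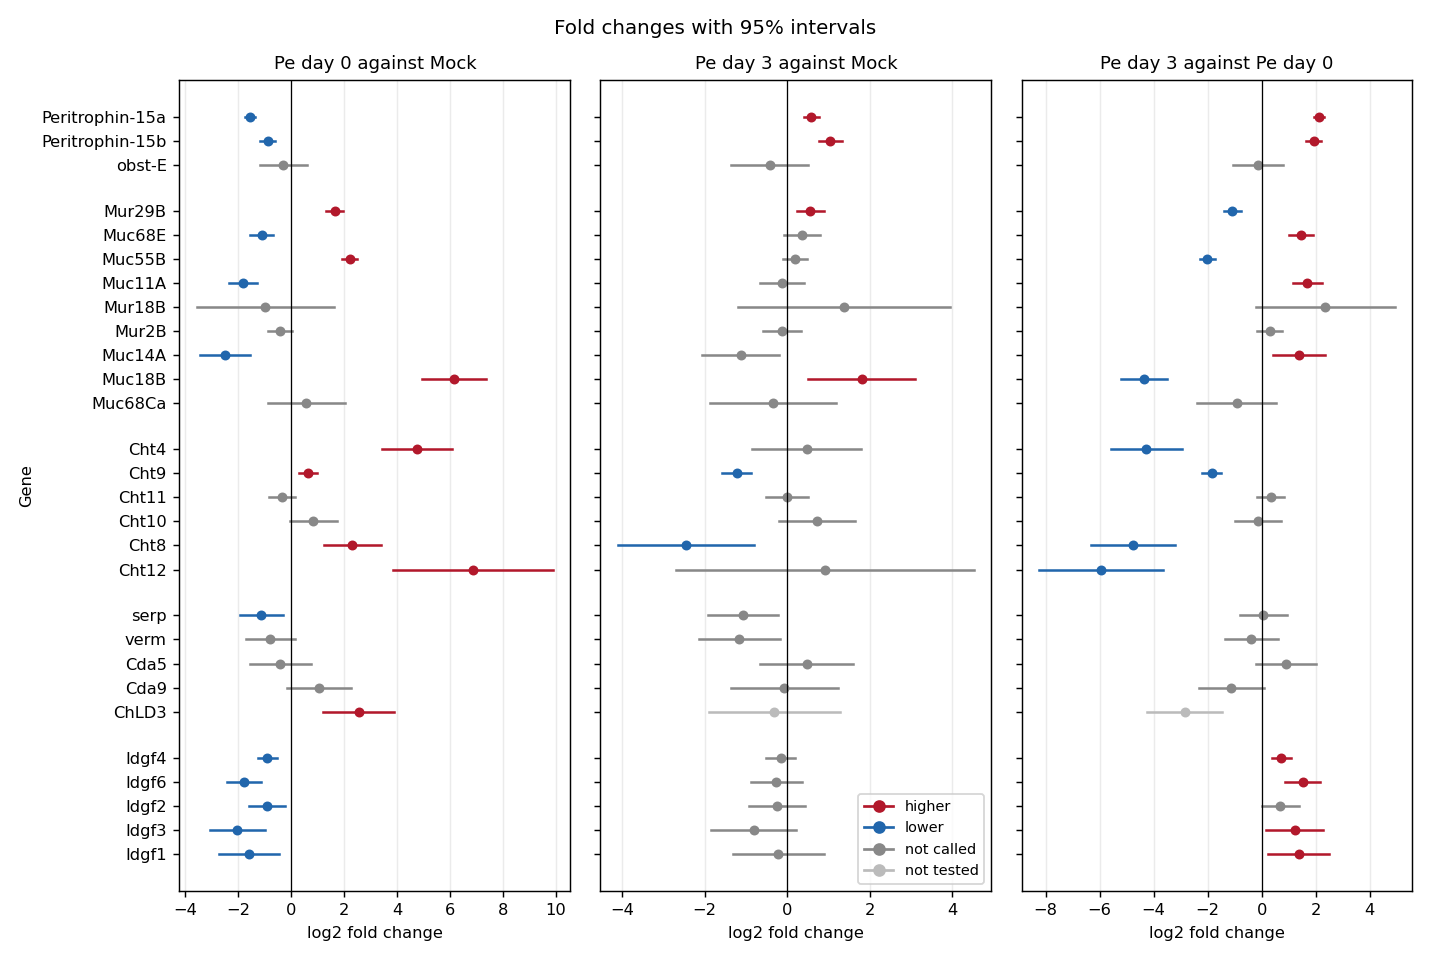
Log2 fold changes with 95% intervals of the 28 members in 3 comparisons, coloured by call at an adjusted p of 0.05 (ChLD3 had no adjusted p in the middle and right panels). In the left panel Cht12, Muc18B and Cht4 lie farthest to the right, at 6.86, 6.16 and 4.75; Peritrophin-15a and Peritrophin-15b change from lower in the left panel to higher in the middle one, and Cht8 and Cht9 the other way round.

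Chitin deacetylases strip acetyl groups from chitin. Of 5 tested, 1 was higher and 1 lower at Pe day 0 by the authors' deposited table, and 0 of 4 passed at Pe day 3 against Mock (2 at an unadjusted p under 0.05) or between the Pe groups (0 at an unadjusted p under 0.05). Of all tested genes 23.0% were higher and 23.6% lower at Pe day 0. Those called made up 17.7% at Pe day 3 against Mock and 52.7% between the Pe groups. ChLD3 averaged 6.46 ± 2.61 normalised reads at Pe day 3, 46.6 ± 13.2 at Pe day 0 and 8.00 ± 3.09 in Mock, and rose 5.83-fold at Pe day 0 by the authors' deposited table (2.54, SE 0.69, adjusted p = 0.000756). Its span overlaps that of LSm7, on the other strand, by 296 bases, and LSm7 had an overall mean of 294 normalised reads. With an overall mean of 20.4 it lies just inside the minimum of 20, and Cht2 with 16.6 just outside. Cda9 and Cda5 did not pass at Pe day 0 by the authors' deposited table (1.05, SE 0.61, adjusted p = 0.152, and -0.42, SE 0.59, adjusted p = 0.591). With library totals Cda9 was called higher at Pe day 0 than Mock (1.72, adjusted p = 0.00941) and lower at Pe day 3 than at Pe day 0 (-1.76, adjusted p = 0.00652).

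The tracheal deacetylase genes serp and verm, neighbours on 3L, had their highest levels in Mock, and of the pair serp alone passed, at Pe day 0 only. serp averaged 31.4 ± 7.0 normalised reads at Pe day 3, 30.0 ± 6.2 at Pe day 0 and 65.6 ± 13.2 in Mock. Its values by the authors' deposited table were -1.13 (SE 0.41, adjusted p = 0.0160) at Pe day 0, a call lost with library totals (-0.46, adjusted p = 0.334), and -1.06 (SE 0.43, adjusted p = 0.0715) at Pe day 3. verm averaged 20.6 ± 5.4 normalised reads at Pe day 3, 26.8 ± 6.2 at Pe day 0 and 46.1 ± 10.6 in Mock. Markers of trachea other than these genes (trh, btl, pio, Gasp and uif) were lower at Pe day 0 in 3 of 5 cases, with a median of -1.04 by the authors' deposited table. The share lower over all tested genes was 23.6%. With library totals the median was -0.37 and btl alone was called (-1.07, adjusted p = 0.000118). At Pe day 3, 0 of 4 tested were called by the authors' deposited table (1, btl, at an unadjusted p under 0.05), with a median of -0.38, beside 17.7% of all tested genes called. All 7 tracheal markers, serp and verm included, summed to 527 normalised reads at Pe day 3, 334 at Pe day 0 and 757 in Mock, and the part of tracheal content in the serp result was not tested.

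Of 6 tested Idgf genes, 5 were lower and 0 higher at Pe day 0 than Mock by the authors' deposited table, beside 23.6% of all tested genes lower. The median was -1.26, or -0.59 with library totals, where the calls of Idgf1, Idgf2 and Idgf4 were lost. At Pe day 3, 0 of 5 passed against Mock by the authors' Wald test (0 at an unadjusted p under 0.05), with a median of -0.24. The share called there over all tested genes was 17.7%. Between the Pe groups 4 of 5 were higher at Pe day 3 by the Wald test, beside 27.4% of all tested genes. Of these 4 genes, Idgf1, Idgf3 and Idgf4 were lost with library totals.

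Idgf4, the most abundant, averaged 317 ± 29 normalised reads at Pe day 3, 191 ± 17 at Pe day 0 and 354 ± 32 in Mock. It fell 1.86-fold at Pe day 0 by the authors' deposited table (-0.89, SE 0.18, adjusted p = 5.24e-06). Idgf6 averaged 114 ± 18 normalised reads at Pe day 3, 39.7 ± 6.6 at Pe day 0 and 137 ± 21 in Mock, a fall of 3.44-fold at Pe day 0 by the authors' deposited table (-1.78, SE 0.33, adjusted p = 2.44e-07). Pe day 3 was 2.87-fold above Pe day 0 for Idgf6 (1.52, SE 0.33, adjusted p = 1.39e-05, Wald test).

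Idgf1, Idgf2 and Idgf3 stand in a row within 9.92 kilobases of 2L (16445278 to 16455194, BDGP6.54 annotation). They summed to 188 normalised reads at Pe day 3, 94.95 at Pe day 0 and 261 in Mock. In the authors' deposited table their changes at Pe day 0 were -1.59 (SE 0.58, adjusted p = 0.0144) for Idgf1, -0.92 (SE 0.34, adjusted p = 0.0182) for Idgf2 and -2.03 (SE 0.53, adjusted p = 0.000435) for Idgf3. Idgf5, at 12.9 normalised reads over all libraries, was at 1.2 (SE 0.76, adjusted p = 0.192) in the same table, and was called higher with library totals (1.87, adjusted p = 0.0247). Other genes lie on the opposite strand across Idgf1 and part of Idgf2 (CG5888, overall mean 5.85 normalised reads) and across Idgf6 (Pgant9, overall mean 3069), counting introns.

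Idgf proteins are made by fat body and haemocytes as well as by other tissues, and markers of those cells moved in the same comparison. Of 8 haemocyte markers 4 were lower and 0 higher at Pe day 0 by the authors' deposited table, with a median of -0.84 (-0.17 with library totals), and their summed level was 3116 normalised reads at Pe day 3, 1948 at Pe day 0 and 2961 in Mock. Of 5 tested fat body markers 4 were lower there, with a median of -2.00 by the authors' deposited table (-1.34 with library totals) and summed levels of 6489 at Pe day 3, 1867 at Pe day 0 and 6604 in Mock. Fbp1, Fbp2 and to had means under 1. Of all tested genes 23.6% were lower at Pe day 0 by the authors' deposited table. The part of fat body or haemocyte content in the Idgf result was not tested.

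Members under a mean of 20 numbered 25. Mur82C and Muc91C were at 0 in the table, and the other 23 had means of 0.117 to 16.6. Beside Cht2 and Muc96D, none of these was called by the authors' deposited table, among 15 tested at Pe day 0 and 0 tested at Pe day 3. The remaining names are Muc4B, Muc12Ea, Muc26B, Muc30E, Muc68D, Mur11Da, Mur89F, Cht5, Cht6, Cht7 and Cda4. Most cuticle protein genes were scarce too, and 94 of 121 had a mean under 1. Of 25 tested, 3 were higher and 1 lower at Pe day 0 by the authors' deposited table, beside 23.0% and 23.6% of all tested genes. Of the 5 markers of cuticle-lined foregut and hindgut byn was at 0, otp and Cpr97Eb had means under 1, and Dr was higher at Pe day 0 (4.59, SE 0.93, adjusted p = 3.80e-06 by the authors' deposited table). The other tested marker of that list, Cpr49Ae, was not called there (-0.41, SE 1.1, adjusted p = 0.791 by the authors' deposited table).

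The spread between libraries differed among members. The dispersion behind each deposited SE corresponds to a coefficient of variation (CV) within groups, which the table cannot assign to a group or library. It was 90.7% for Mur18B and 46.1% for Cht4, against medians of 11.6% and 8.85% among genes of like mean (within 2-fold), where they lay at the 99.7th and 99.5th percentile. Mur18B averaged 632 ± 406 normalised reads at Pe day 3, 124 ± 79.5 at Pe day 0 and 242 ± 156 in Mock. Its 95% interval at Pe day 0 against Mock ran from -3.54 to 1.60 on the log2 scale in the authors' values. Muc14A, Muc11A, Muc68Ca and Idgf3 also lay above the 95th percentile, with CVs of 31.7%, 18.4%, 47.8% and 34.4%. At the other end stood Peritrophin-15a, at 6.57% and the 11th percentile, and Muc55B, at 8.58% and the 21.3rd percentile.

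**Figure D4:**
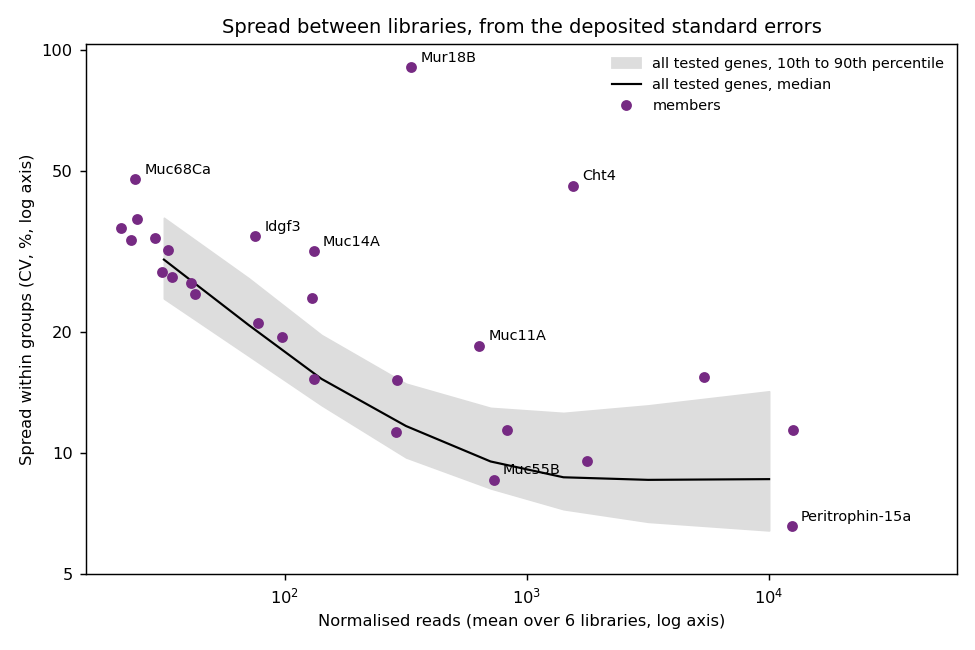
Within-group spread of the 27 members tested in both comparisons (points, CV in percent, log axis) against the mean over 6 libraries (normalised reads, log axis), with the median (line) and the 10th to 90th percentile (band) of the 8148 of 8316 tested genes with a mean of 20 to 20000. Mur18B at 90.7% and Cht4 at 46.1% lie far above the band, and Peritrophin-15a, at 6.57%, lies to the right of the last bin centre drawn.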

How the data were processed

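The samples are adult midgut RNA-seq libraries, 2 in each of 3 groups. The submitters' processing notes name fastp 0.19.5, Salmon 0.11.3, DESeq2 1.22.0 and the build BDGP6, with no roles. The authors deposited 1 table of 14026 genes. Its overall mean is a signal in normalised reads, its fold changes and their SEs are deposited on a log2 scale, its Wald statistic is a deposited score, and its p-values, raw and adjusted, are the authors' own (DESeq2). The order of the comparisons follows the table's title. The design allowed for counts per library, which the table does not hold, so the authors' test is the main one.

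From these columns, group means, size factors, reads per group, the dispersion behind each SE and model SEs were derived (Python 3.11.15, numpy 2.4.6, scipy 1.17.1, pandas 2.3.3). Pe day 3 was set against Pe day 0 with a Wald test in which the Mock variance that both comparisons share was removed, and p-values were adjusted by Benjamini and Hochberg over the 8316 genes tested at Pe day 3. This contrast was tested on simulated data. Intervals are 95% and those of read ratios are exact and cover counting error only. Genes under a mean of 1.24 at Pe day 0 and 20.8 at Pe day 3 had no adjusted p. Positions come from the BDGP6.54 annotation (Ensembl release 115).

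A gene counts as called at an adjusted p under 0.05. All members with a mean of at least 20 were named, and other genes came from lists by pathway and cell type. Members and lists were chosen with earlier results of these data known. Alternatives were library totals as the scale, those totals without the 20 most abundant genes, no filter on the mean, a minimum mean of 100, an added 2-fold minimum, and a standard error that ignores the shared Mock. Their use on listed genes that are not members was chosen after seeing the data.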

Additional observations from a re-analysis of the deposited data

Results flagged for a closer look

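For 4 members the authors' deposited table calls opposite changes against Mock at Pe day 3 and at Pe day 0. A difference between the Pe groups follows from such opposite calls against the same Mock. Its test (Wald test, Benjamini-Hochberg adjustment) therefore adds no separate support, and the values below give its size. Pe day 3 minus Pe day 0 was 2.13 on the log2 scale for Peritrophin-15a (SE 0.096, adjusted p = 5.85e-107) and 1.93 for Peritrophin-15b (SE 0.14, adjusted p = 3.13e-40). It was -1.85 for Cht9 (SE 0.18, adjusted p = 1.56e-24) and -4.75 for Cht8 (SE 0.80, adjusted p = 1.44e-08). The Cht8 level at Pe day 3 rests on about 5 reads, and the gene passed the minimum on the mean only through Pe day 0. Its ratio of Pe day 0 to Pe day 3 was 27.2, with an exact 95% interval of 11.5 to 84.7 from counting error. With library totals, Peritrophin-15b was not called at Pe day 0 (-0.21, adjusted p = 0.194), so its opposite calls depend on the scale.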

How the results depend on the processing

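No paired analysis was possible because the table holds no values per library. For the same reason leaving out a library, other size factors and refits with other count tools were not run. With library totals, members lower at Pe day 0 numbered 5, and 7 without the 20 most abundant genes, against 11, and members higher at Pe day 3 than at Pe day 0 numbered 5 under both, against 9. Over all genes, library totals gave 5545 higher and 932 lower at Pe day 0, against 2391 and 2455, and 778 higher and 5250 lower between the Pe groups, against 2279 and 2102. A minimum mean of 100 left 14 members tested and 11 called at Pe day 0 (5 higher, 6 lower), with 1 lower at Pe day 3. Asking for 2-fold left 2 higher at Pe day 3. With no filter on the mean, 12 members were lower at Pe day 3 than at Pe day 0. A standard error that ignores the shared Mock left 13 members called between the Pe groups (6 higher, 7 lower), against 16, and 1652 higher and 1346 lower of all genes. Uncalled values changed sign with library totals and without the 20 most abundant genes for Cda5 (0.25, 0.079), Cht11 (0.33, 0.16), Mur2B (0.24, 0.064) and obst-E (0.37, 0.20) at Pe day 0. Between the Pe groups they did so for Cht11 (-0.30, -0.087), Mur2B (-0.34, -0.12) and serp (-0.57, -0.36), and at Pe day 3 Cda9 did so without the 20 genes (0.0043). These shifts follow from adding a constant. Cht8, Cht12 and Muc18B rest on few reads outside Pe day 0.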

Other observations

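At Pe day 0, 4 of 12 tested genes for O-linked glycosylation and secretion of mucins were higher than Mock and 5 lower by the authors' deposited table, with a median of -0.39, beside 23.0% of all tested genes higher and 23.6% lower. With library totals 6 were higher and 0 lower, with a median of 0.28. Over all 10393 tested genes, that scale gave 5545 higher and 932 lower, with a median of 0.69. Those higher by the authors' deposited table included pgant3, for an enzyme that starts O-glycan chains (1.27, SE 0.16, adjusted p = 2.62e-14), and GlcAT-S, for a glucuronyltransferase (1.45, SE 0.20, adjusted p = 5.19e-12). Among the 5 lower by that table, Csat had the smallest p (-0.61, SE 0.17, adjusted p = 0.000817), and it was at 0.060 with library totals. Tango1, which exports bulky cargo from the endoplasmic reticulum, was also lower (-0.32, SE 0.13, adjusted p = 0.0303) by the authors' deposited table, but with library totals the direction turned (0.35, adjusted p = 0.0125). At Pe day 3, 2 of 11 were higher than Mock by the authors' deposited table and 0 lower (0 lower at an unadjusted p under 0.05), pgant3 at 0.63 (SE 0.16, adjusted p = 0.00151) and pgant6 at 0.32 (SE 0.12, adjusted p = 0.0400). The shares over all tested genes were 8.75% higher and 8.92% lower there.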
